A study of Mus musculus with 33 samples.

Results

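Ion channels of the potassium, HCN, sodium and calcium families set how neurons rest, fire and release transmitter, and their subunits fall into pore-forming alpha subunits and auxiliary subunits that steer gating and traffic. In motoneurons, sodium and potassium channels carry the action potential along the axon, HCN and tandem-pore potassium channels set the resting potential, and calcium channels open transmitter release at the terminal. Their mRNAs are found on the somatodendritic side and, at varying levels, in axons. hnRNP R binds nuclear and cytoplasmic RNA and has known roles in motoneuron axons, and 7SK is a noncoding RNA known for sequestering P-TEFb, the kinase of transcription elongation, and for binding hnRNP R.

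The genes described here were chosen by symbol, with earlier results of these data known. Included were genes starting with Kcn or Cacna, or with Hcn, Scn, Cacnb or Cacng followed by a digit. They comprised 138 genes in 140 of the 37926 records of each RNA table, because Cacng8 and Scn4a had 2 records each. In the iCLIP files 136 of 36194 genes carried these symbols, with Kcnh8 as 2 entries, while Kcnb2, Kcnk16 and Kcnmb3 were not matched there.

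The RNA-seq samples were primary motoneurons of CD-1 mice in microfluidic chambers, in which axons grow into a compartment of their own, and total RNA was taken from the axonal and the somatodendritic side. Knockdown of hnRNP R had 3 libraries per side, knockdown of 7SK had 4 per side, and the GFP controls had 4 per side. The labels state neither the knockdown method nor an age, and list the treatment as none. iCLIP, which counts cDNAs that end where a protein was crosslinked to RNA, used antibody 1 against hnRNP R in wildtype CD-1 motoneurons (2 libraries) and in NSC34 cells, a mouse hybrid line with motoneuron traits (2 libraries). It also used nuclear and cytoplasmic fractions of motoneurons with antibody 1 and of NSC34 cells with antibody 1 and with antibody 2 (1 library each), and a control IgG in NSC34 cells (1 library). Nothing in the labels names cultures or animals for the replicates. Every p-value below therefore rests on spread among libraries that could be technical.

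The authors' RNA values were 1 FPKM (fragments scaled to transcript length and depth) per group, so the spread between replicates and the read depth are unknown here, and the authors' own test is the only one over replicates. Total iCLIP cDNAs were 359005 and 319381 in the motoneuron libraries, 456721 and 99762 in the NSC34 libraries and 36280 in the IgG library. Of the targets, Hnrnpr stood at 10.8 FPKM in hnRNP R knockdown and 27.2 FPKM in GFP on the somatodendritic side, and the authors' deposited table gave q = 0.310. The 7SK gene Rn7sk fell to 6370 FPKM in 7SK knockdown against 9104 FPKM in GFP on the somatodendritic side (q = 0.00407 in the authors' deposited table). In axons Rn7sk was at 3508 FPKM in the group labelled 7SK knockdown and 2708 FPKM in GFP, with q = 0.594 per the authors' deposited table, against the label, so that group is called by its label throughout. All 8 pan-neuronal markers were present on both sides. Among the motoneuron markers Chat, Mnx1 and Isl2 were listed at 0 in every group, and Prph and Slc5a7 were under 1 FPKM. Ache and Isl1 stood at 13.0 and 2.42 FPKM in GFP cell bodies. Gad1, a marker of inhibitory neurons, stood at 41.4 FPKM in GFP cell bodies. In such bulk samples, fewer cells of a type and less RNA per cell cannot be told apart.

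Most channel transcripts stayed below 20 FPKM. Of the 140 records, 94 reached 1 FPKM in at least 1 group, 62 reached 5 FPKM and 15 reached 20 FPKM, while 14 were at 0 everywhere. By comparison, 74 to 86 of the 140 channel records reached 1 FPKM in either group, beside 13119 to 13675 of all 37926 records, a smaller share. In GFP controls 65 records reached 1 FPKM in axons and 80 on the somatodendritic side. Both sides shared 63 of them, and Kcnab3 was among those that reached this level in GFP axons alone.

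On the somatodendritic side of GFP controls the highest channel transcript was Kcnk9, the tandem-pore potassium channel TASK-3 that carries an acid-sensitive resting current, at 56.4 FPKM. The AMPA receptor auxiliary subunits Cacng7 and Cacng4 followed at 51.7 and 48.2 FPKM, then Scn3b, a sodium channel beta subunit, at 47.1 FPKM and Cacna2d2, a calcium channel alpha2delta subunit, at 44.2 FPKM. The presynaptic calcium channel pores Cacna1a (P/Q type) and Cacna1b (N type) stood at 31.8 and 22.1 FPKM there. Cacng3, another AMPA receptor auxiliary subunit, reached 29.8 FPKM, and Scn2a1, a sodium channel of the axon initial segment, reached 26.7 FPKM.

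In GFP axons the order differed. Cacna2d2 came first at 21.7 FPKM, ahead of Cacng4 at 19.8 FPKM and Kcne1l, a KCNE-type auxiliary subunit, at 19.6 FPKM. Kcnk9 followed at 17.9 FPKM, Cacng7 at 16.2 FPKM, Cacna1b at 14.6 FPKM, Cacna1a at 14.2 FPKM, Hcn3 at 13.8 FPKM and Scn3b at 13.3 FPKM. Of these, Kcne1l and Hcn3 were not among the 10 highest on the somatodendritic side. The plot of the most abundant channel genes shows both sides beside their knockdowns. With 1 value per group, neighbours in these orders cannot be separated by a test.

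**Figure D1:**
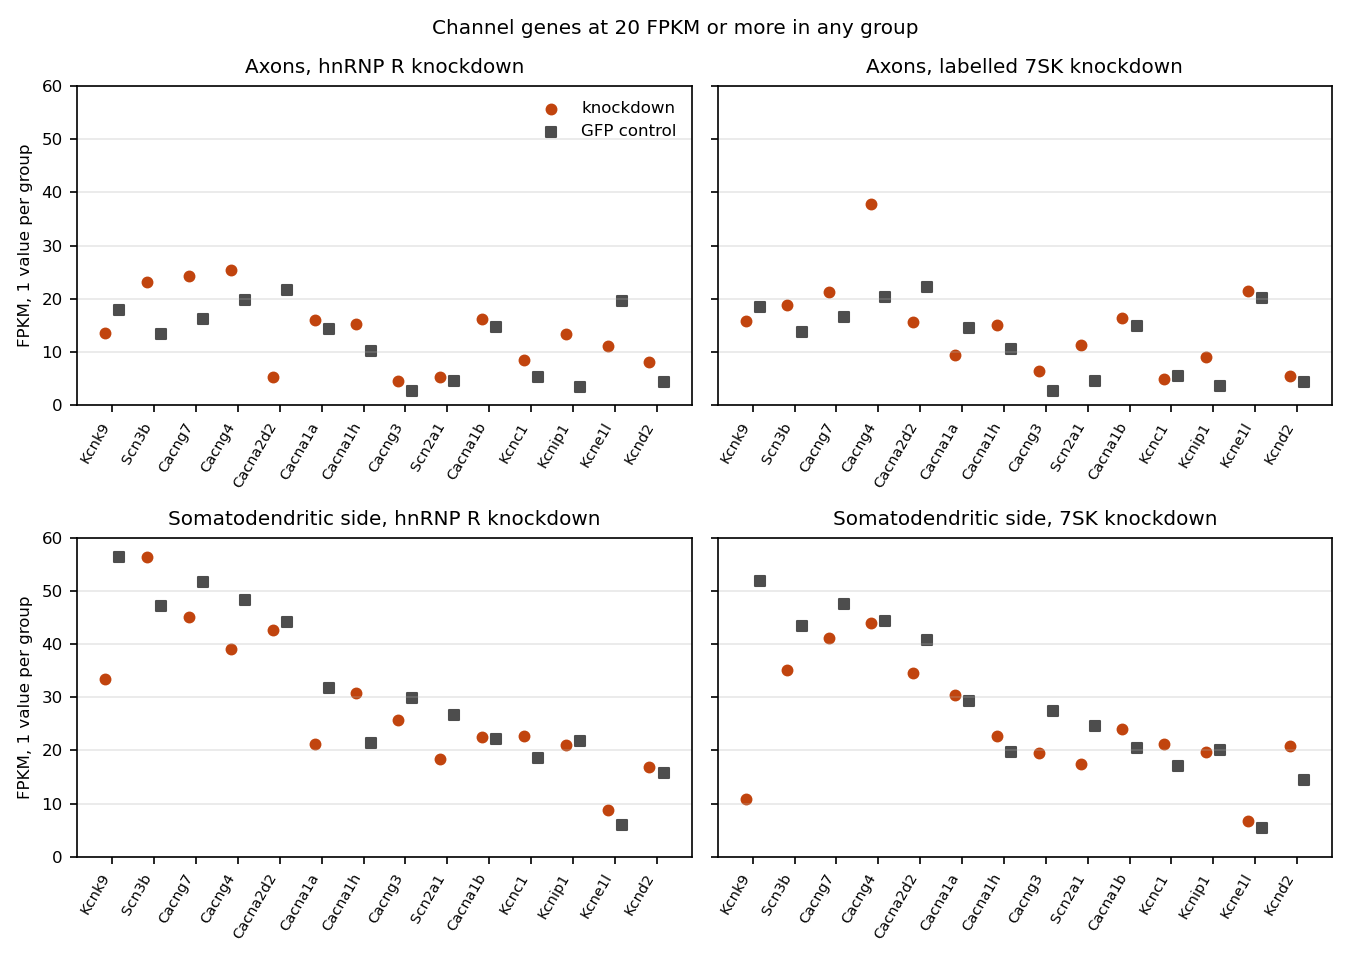
FPKM (linear axis from 0) of 14 of the 15 channel genes at 20 FPKM or more in any group, with the knockdown as circles left of GFP as squares, for axons (upper row) and the somatodendritic side (lower row); each point is 1 group value without an error. Kcnk9 in the lower right panel stands at 10.8 FPKM in 7SK knockdown and 51.9 FPKM in GFP.

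Most channel transcripts were lower in GFP axons than in GFP cell bodies, as neuronal marker transcripts also were. The log2 ratio of axons over the somatodendritic side (0.1 FPKM added to each value) had a median of -1.49 over the 82 channel records at 1 FPKM or more on either side, against -0.58 over all 13576 such records. Of the channel records 9 (11.0%) were higher in axons, against 29.5% of all records. The 8 pan-neuronal markers, such as Tubb3 and Snap25, had a median of -2.02 (0 of 8 higher in axons), summing to 519 FPKM in GFP axons and 1824 FPKM in GFP cell bodies, so the low axonal level was not particular to channels. Astrocyte and radial glia markers had a median of -0.74, with 2 of 8 higher in axons and sums of 642 FPKM in GFP axons and 451 FPKM in GFP cell bodies. The gap to all records held at each level of expression, with medians of -1.37 for channel and -0.41 for all records between 1 and 5 FPKM, -1.50 and -0.56 between 5 and 20 FPKM, and -1.46 and -0.74 between 20 and 60 FPKM. The 2 sides come from tables normalized separately and have 1 value per group, so this is a description without a test. Values of both sides are those of the hnRNP R tables, and whether the authors' RNA counting used strand is unknown, so reads of overlapping antisense genes could enter any of them.

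Transcripts with Cacn symbols, the gamma subunits (Cacng) included, were all on the low side. In GFP axons 21 of 21 such records lay below the somatodendritic level, with a median log2 ratio of -1.28. The alpha1 pores together summed to 51.8 FPKM in GFP axons and 114 FPKM in GFP cell bodies, and the gamma subunits to 47.2 and 157 FPKM. Among the pores the N-type channel Cacna1b had the ratio nearest to 0, at 14.6 FPKM in GFP axons and 22.1 FPKM in GFP cell bodies. Inward rectifier potassium channels, which stabilize the resting potential, had the lowest family median at -2.65 (5 records, 0 higher in axons).

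The 9 records that were higher in GFP axons came from several families. Kcne1l was at 19.6 FPKM in GFP axons and 5.94 FPKM in GFP cell bodies, Hcn3, a pacemaker channel subunit, at 13.8 and 11.3 FPKM, and Kcnc4, a fast potassium channel known from axons (GRCm38 chromosome 3, 107438303 to 107458898), at 10.2 and 7.74 FPKM. Kcnk10, Kcnk1, Kcnn3, Kcnab2 and Kcnab3 were also among them, and Kcnk1 and Kcnab2 differed little between the sides. Fibroblast and smooth muscle markers also differed between the sides, summing to 562 FPKM in GFP axons and 87.6 FPKM in GFP cell bodies (Acta2 alone at 526 and 82.8 FPKM, Lum and Dcn under 1 FPKM on both sides). Their part in these levels was not tested.

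**Figure D2:**
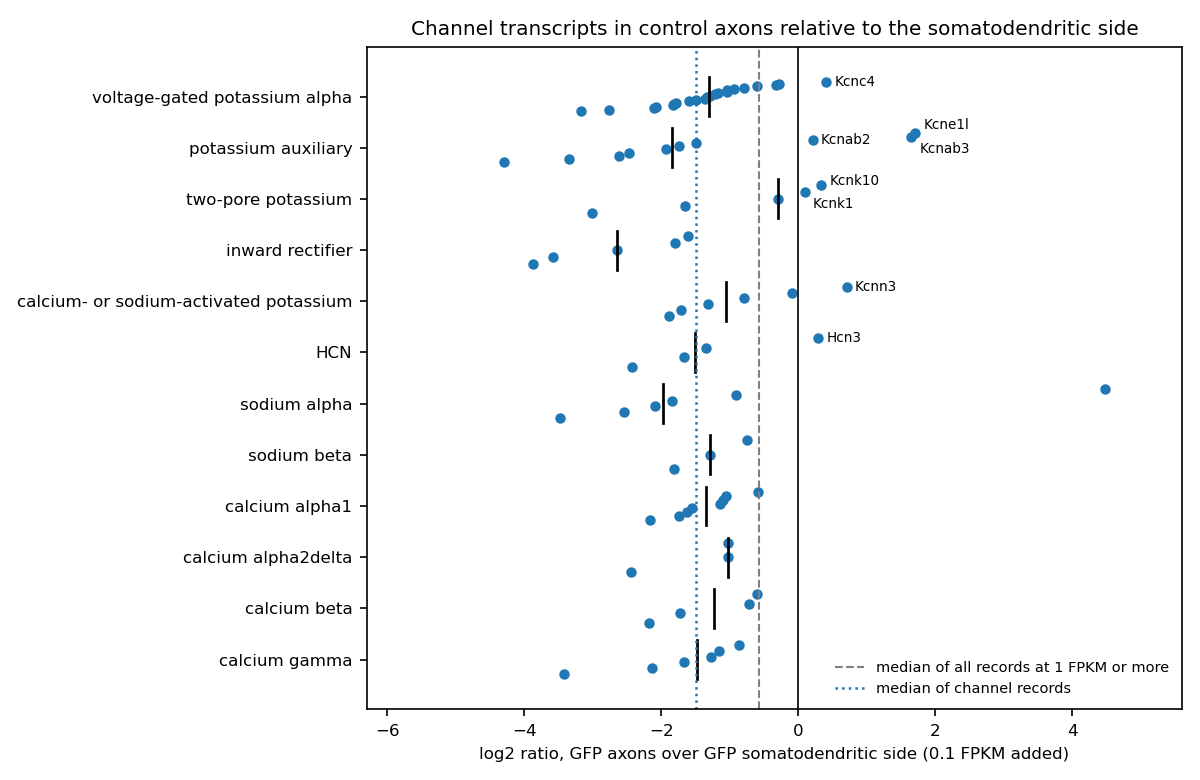
Log2 ratio of GFP axons over the GFP somatodendritic side (0.1 FPKM added) for the 82 channel records at 1 FPKM or more, by family; each point is 1 record, short black bars are family medians, and most records above 0 are named. The channel median (-1.49, dotted) lies left of the median of all records (-0.58, dashed), and no record with a Cacn symbol lies above 0.

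The knockdown of 7SK on the somatodendritic side gave the single channel gene that passed the authors' test. Kcnk9 (GRCm38 chromosome 15, 72512119 to 72546279) fell to 10.8 FPKM in 7SK knockdown, against 51.9 FPKM in GFP cell bodies. In the authors' deposited table this was a log2 ratio of -2.26 with p = 5e-05 and q = 0.00407. The authors had tested 7 channel records in this comparison, and 1 was called, beside 2.51% of all 1954 tested records in the same authors' deposited table. A record was called at q under 0.05, and records below 27.0 FPKM in their higher group carried no test.

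Kcnk9 was also lower after hnRNP R knockdown without passing the threshold. It stood at 33.5 FPKM in hnRNP R knockdown and 56.4 FPKM in GFP cell bodies, with a log2 ratio of -0.75, p = 0.00155 and q = 0.0933 in the authors' deposited table. In axons it was at 13.5 FPKM in hnRNP R knockdown and 17.9 FPKM in GFP, and at 15.8 FPKM in the group labelled 7SK knockdown and 18.4 FPKM in GFP, below the authors' testing level. Both knockdowns share their GFP libraries, so these ratios are not independent of each other. The other tandem-pore channels near 5 FPKM on the somatodendritic side stayed close to GFP in 7SK knockdown. Kcnk10 was at 6.10 FPKM in 7SK knockdown and 6.83 FPKM in GFP, Kcnk1 at 6.24 and 5.52 FPKM, Kcnk2 at 5.90 and 5.55 FPKM, and Kcnk3, the TASK-1 relative of Kcnk9, at 4.26 and 3.97 FPKM; none of these 4 was tested. Pan-neuronal markers were lower in 7 of 8 cases, summing to 1423 FPKM in 7SK knockdown and 1679 FPKM in GFP cell bodies, and oligodendrocyte markers were higher in 7 of 8, summing to 103 and 76.8 FPKM. The fibroblast marker Acta2 stood at 130 FPKM in 7SK knockdown and 76.3 FPKM in GFP cell bodies. Their part in the Kcnk9 result was not tested.

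The other 6 channel records tested after 7SK knockdown of cell bodies did not pass, with log2 ratios between -0.49 and 0.06 in the authors' deposited table. Cacng3 was at 19.5 FPKM in 7SK knockdown and 27.4 FPKM in GFP, with q = 0.550 in the authors' deposited table. Scn3b was at 35.1 FPKM in 7SK knockdown and 43.3 FPKM in GFP, with q = 0.461 in the authors' deposited table. Cacng7, Cacna2d2, Cacna1a and Cacng4 had q values from 0.637 to 0.979 in the authors' deposited table. With these group values the size of change that the test could have detected for each gene is unknown.

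Over all 86 channel records at 1 FPKM or more, the median log2 ratio of 7SK knockdown over GFP cell bodies was 0.08, and it was 0.08 over all 13479 records. At 5 FPKM or more, 3 of 54 channel records differed by 2-fold or more, beside 12.0% of all records. They were Kcnk9, Scn3a, a sodium channel known from developing neurons, at 3.46 FPKM in 7SK knockdown and 7.36 FPKM in GFP, and Kcnab1, a potassium channel beta subunit, at 6.398 and 2.80 FPKM. The calcium channel beta subunits were higher in 4 of 4 records (median 0.28) and the gamma subunits in 1 of 6 (median -0.32). Voltage-gated potassium alpha subunits were higher in 16 of 23 (median 0.13). These untested differences rest on 1 value per group.

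Knockdown of hnRNP R on the somatodendritic side changed no channel record past the authors' threshold. The authors tested 13 channel records, 4 of them higher, and called 0, beside 0.975% of all 2768 tested records in the authors' deposited table. After Kcnk9 the lowest p values were those of Scn2a1, at 18.4 FPKM in hnRNP R knockdown and 26.7 FPKM in GFP (log2 ratio -0.54, p = 0.0817, q = 0.480 in the authors' deposited table), and Cacna1a, at 21.1 and 31.8 FPKM (log2 ratio -0.59, p = 0.107, q = 0.537, likewise from the authors' deposited table). Cacna1h, a low-threshold T-type calcium channel, was at 30.7 FPKM in hnRNP R knockdown and 21.4 FPKM in GFP, and the authors' deposited table gave a log2 ratio of 0.52 and q = 0.680. Scn3b was at 56.3 FPKM in hnRNP R knockdown and 47.1 FPKM in GFP, and the authors' deposited table gave a log2 ratio of 0.26 and q = 0.554. The remaining 8 records, among them Cacng4, Cacng7, Cacng3, Cacna2d2, Cacna1b, Kcnc1 and Kcnip1, lay within a log2 ratio of -0.30 to 0.29 in the authors' deposited table.

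Across the 85 channel records at 1 FPKM or more the median log2 ratio was -0.04 (40 higher, 45 lower), and it was 0.02 over all 13493 records. At 5 FPKM or more 2 of 54 channel records differed by 2-fold or more, beside 8.56% of all records. They were Kcna4, an A-type potassium channel, at 7.69 FPKM in hnRNP R knockdown and 2.98 FPKM in GFP, and Kcnab2, a beta subunit of such channels, at 13.7 and 5.68 FPKM. Neither was tested. Oligodendrocyte markers summed to 120 FPKM in hnRNP R knockdown and 83.5 FPKM in GFP cell bodies, and their part in these levels was not tested.

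In axons no channel record passed either test. After hnRNP R knockdown the authors tested 3 channel records and called 0, beside 0.114% of all 1749 tested records in the authors' deposited table. All 3 were higher in the knockdown. Scn3b (GRCm38 chromosome 9, 40269216 to 40291618) was at 23.1 FPKM in hnRNP R knockdown axons and 13.3 FPKM in GFP axons (log2 ratio 0.80, p = 0.0910, q = 0.633 in the authors' deposited table). Cacng7 was at 24.3 FPKM in hnRNP R knockdown axons and 16.2 FPKM in GFP axons. Cacng4 was at 25.5 FPKM in hnRNP R knockdown axons and 19.8 FPKM in GFP axons. The q values in the authors' deposited table were 0.729 for Cacng7 and 0.883 for Cacng4.

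Below the testing level, the axonal values of hnRNP R knockdown spread widely around GFP. Of 36 channel records at 5 FPKM or more in either group, 10 differed by 2-fold or more, beside 20.3% of all records. Among the higher ones were 3 KChIP subunits, calcium-binding partners of the Kv4 potassium channels. Kcnip4 (GRCm38 chromosome 5, 48389502 to 49524904) was at 6.00 FPKM in hnRNP R knockdown axons and 0.249 FPKM in GFP axons, Kcnip1 at 13.4 and 3.44 FPKM, and Kcnip2 at 5.49 and 2.21 FPKM. The fourth KChIP gene, Kcnip3, was at 4.12 FPKM in hnRNP R knockdown axons and 1.67 FPKM in GFP axons. On the somatodendritic side the same genes were near GFP, with Kcnip4 at 6.32 FPKM in hnRNP R knockdown and 6.79 FPKM in GFP and Kcnip1 at 21.0 and 21.7 FPKM. Potassium auxiliary subunits had a median log2 ratio of 1.00 in hnRNP R knockdown axons over 8 records, 5 of them higher.

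Kcnf1, an electrically silent potassium subunit, was at 6.75 FPKM in hnRNP R knockdown axons and 0.579 FPKM in GFP axons. The calcium-activated channel Kcnn2 was at 6.14 and 1.09 FPKM, the sodium-activated channel Kcnt1 at 12.2 and 5.30 FPKM, and the alpha2delta subunit Cacna2d3 at 5.25 and 1.58 FPKM. Lower in hnRNP R knockdown axons were Cacna2d2 (5.25 FPKM against 21.7 FPKM in GFP), Kcnc4 (3.61 against 10.2 FPKM) and Hcn3 (5.37 against 13.8 FPKM). Thus the 2 alpha2delta genes named here lay on opposite sides of GFP. Over the 74 records at 1 FPKM or more the median log2 ratio was 0.23 (43 higher, 31 lower), and it was 0.03 over all 13119 records.

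The axon group labelled 7SK knockdown held 1 tested channel record and 0 calls, beside 3.07% of all 1009 tested records in the authors' deposited table. This record was Cacng4, at 37.8 FPKM in the group labelled 7SK knockdown and 20.3 FPKM in GFP axons (log2 ratio 0.90, p = 0.129, q = 0.391 in the authors' deposited table). Of 36 channel records at 5 FPKM or more 15 differed by 2-fold or more, beside 28.9% of all records. Kcnc4 was at 0.377 FPKM in the group labelled 7SK knockdown and 10.4 FPKM in GFP axons, the TWIK-type channel Kcnk1 at 1.31 and 6.59 FPKM, and Hcn3 at 3.28 and 14.1 FPKM. Kcnk2, a mechanically and lipid-gated channel, and the T-type channel Cacna1g were also lower. Higher were the pacemaker subunits Hcn2 (7.27 against 1.92 FPKM in GFP) and Hcn4 (7.13 against 2.49 FPKM), the ERG channel Kcnh2 (11.9 against 3.65 FPKM), the sodium channel pore Scn2a1 (11.3 against 4.63 FPKM), and Kcnip1, Kcnh1, Cacng3 and Cacnb1. The HCN genes thus lay on both sides of GFP, with Hcn2 and Hcn4 higher and Hcn3 lower.

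The groups compared in axons also differed in cell type markers. In the axon group labelled 7SK knockdown all 8 microglia markers were higher, summing to 102.9 FPKM against 8.46 FPKM in GFP axons. Fibroblast and smooth muscle markers summed to 237 FPKM against 579 FPKM there, mostly Acta2 (176 against 543 FPKM). Of the 6 at 1 FPKM or more, 3 were higher and 3 lower, with Col1a1 at 46.1 against 27.1 FPKM. Pan-neuronal markers were higher in 6 of 8 cases there (median log2 ratio 0.38), summing to 825 FPKM against 532 FPKM in GFP axons. In hnRNP R knockdown axons the sums were 19.1 FPKM against 8.30 FPKM for microglia, 693 FPKM against 562 FPKM for fibroblast and 567 FPKM against 519 FPKM for pan-neuronal markers (5 of 8 higher). Acta2 alone held 673 against 526 FPKM of that fibroblast sum. Of the 5 fibroblast markers at 1 FPKM or more, 2 were higher and 3 lower. The part of these cells in the axonal channel values was not tested. The median log2 ratio of channel records in the axon group labelled 7SK knockdown was 0.33 (79 records, 48 higher), and it was 0.07 over all 13675 records.

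**Figure D3:**
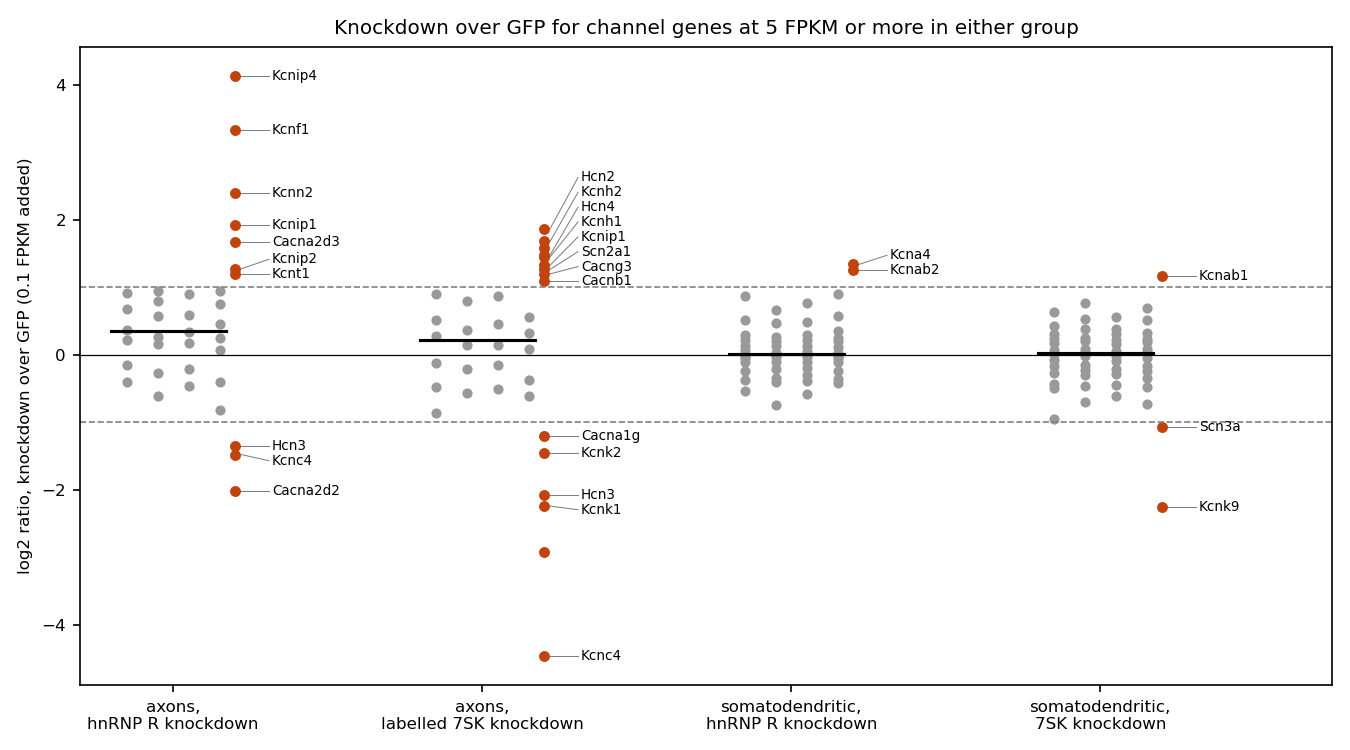
Log2 ratio of knockdown over GFP (0.1 FPKM added) for channel records at 5 FPKM or more in either group; each point is 1 record, red points lie past 2-fold (dashed lines) and most are named, and black bars are medians. Axonal values spread more widely (10 and 15 of 36 records past 2-fold) than somatodendritic ones (2 and 3 of 54).

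A list of 30 channel partners, among them Ank2 and Ank3, which anchor channels at the initial segment and nodes, the Fgf11 to Fgf14 sodium channel modulators and the sodium-potassium ATPases, was read beside the channels. In 7SK knockdown cell bodies 4 of 29 partners at 1 FPKM or more were higher and 25 lower (median log2 ratio -0.22), while 55.8% of all records were higher (median 0.08). The pan-neuronal markers had a median of -0.24 in this comparison, with 7 of 8 lower and 2 called lower in the authors' deposited table, and their part in the partners' values was not tested. The split was 16 higher and 13 lower in hnRNP R knockdown cell bodies (median 0.05), 20 and 9 in hnRNP R knockdown axons (median 0.31), and 21 and 8 in axons labelled 7SK knockdown (median 0.26). Of 12, 13, 9 and 9 tested partners in these comparisons, 0 were called in any of the authors' deposited tables.

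The iCLIP cDNAs on channel genes came mainly from motoneurons and lay mainly in introns. Channel genes held 8185 and 7222 cDNAs in the motoneuron libraries, 2.28% (2.23% to 2.33%) and 2.26% (2.21% to 2.31%) of all. In NSC34 cells they held 2348 and 476 cDNAs, 0.514% (0.494% to 0.535%) and 0.477% (0.435% to 0.522%) of all, and in the IgG library 245 cDNAs, 0.675% (0.594% to 0.765%). The intervals are exact Clopper-Pearson intervals at 95% and cover counting error only. The motoneuron shares thus lay above those of the other libraries, and the NSC34 shares lay below that of the IgG library. No IgG library of motoneurons was analysed here.

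A small number of long genes carried most of these cDNAs. Kcnd2, the Kv4 pore subunit of dendritic A-type currents (GRCm38 chromosome 6, 21215503 to 21729805), had 1132 and 1156 cDNAs in the motoneuron libraries, 254 and 54 in the NSC34 libraries and 9 in the IgG library. Its partner Kcnip4 had 912 and 1382 cDNAs in motoneurons, 6 and 0 in NSC34 cells and 2 with IgG. Cacna2d1, the alpha2delta subunit that binds gabapentin, had 992 and 622 cDNAs in motoneurons, 240 and 52 in NSC34 cells and 15 with IgG. These 3 genes held 40.2% of all motoneuron channel cDNAs, and the top 10 genes held 69.3%.

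Kcnh7, an ERG-family channel, followed with 569 and 564 cDNAs in motoneurons, 19 and 6 in NSC34 cells and 3 with IgG. Kcnq5, an M-current channel, had 443 and 289 cDNAs in motoneurons, 177 and 37 in NSC34 cells and 12 with IgG. The L-type pore Cacna1c had 409 and 322 cDNAs in motoneurons, 623 and 126 in NSC34 cells and 71 with IgG, the most of any channel gene in NSC34 cells and with IgG. At the other end, 35 of the 136 genes had no cDNA in any of these 4 hnRNP R libraries, and 70 had 10 or more.

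**Figure D4:**
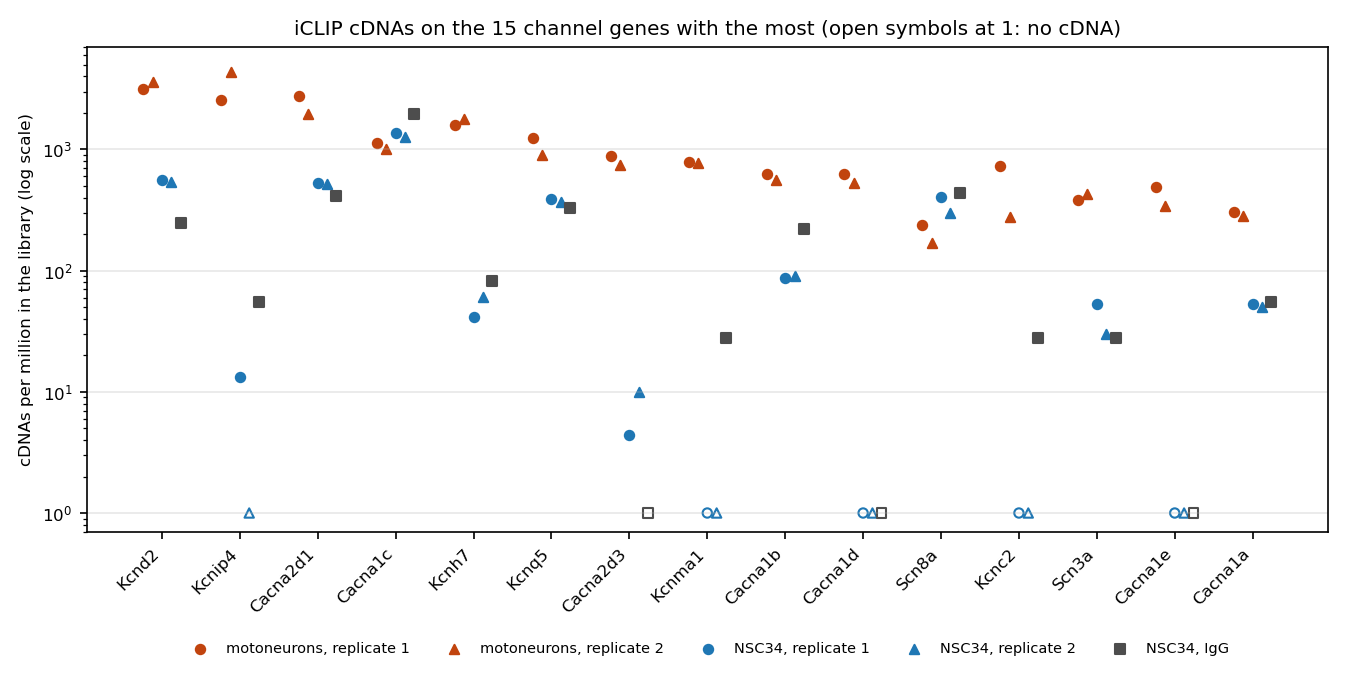
CPM (cDNAs scaled to the library total, log axis) for the 15 channel genes with the most cDNAs over the 4 unfractionated hnRNP R libraries; each symbol is 1 library, and open symbols at the foot stand for libraries without a cDNA. Kcnip4, Kcnh7 and Cacna2d3 stand far higher in motoneurons than in NSC34 cells, while Cacna1c and Scn8a do not.

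Introns held 97.1% and 97.2% of the channel cDNAs in the motoneuron libraries, against 88.1% and 86.5% over all genes. In NSC34 cells they held 95.2% and 94.96%, against 77.3% and 70.7% over all genes, and with IgG 91.8%, against 76.2%. Among the 55 channel genes with 10 or more motoneuron cDNAs the median intron share was 97.0%, and 4 genes lay under 80%. Among them were Kcna6, a delayed rectifier, with 10 of 16 cDNAs in introns (62.5%), Scn3b with 41 of 56 (73.2%), and Kcnc1, a fast-spiking potassium channel, with 35 of 46 (76.1%). The 3′ UTR held 15 of the 56 Scn3b cDNAs, 36 of the 203 cDNAs of the beta subunit Cacnb4 and 24 of the 163 of Scn2a1.

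The cDNA counts followed gene length. Over the 79 channel genes measured in both data types at 1 FPKM or more in GFP cell bodies, Spearman's rho between summed motoneuron cDNAs and gene span was 0.86, and between cDNAs and FPKM in GFP cell bodies it was 0.18. Per kilobase of span, rho with FPKM was 0.32. These are correlations across genes of the same libraries, which are not independent replicates. The median span was 38.9 kb for channel genes and 5.40 kb for all genes, and the 15 genes with the most cDNAs spanned 109 to 1135 kb. Among genes over 100 kb with 10 or more motoneuron cDNAs, the 37 channel genes had a median of 79.8 cDNAs per 100 kb and all 1853 genes had 53.7, with intron shares of 98.0% and 96.5%. Without that length limit, chosen after seeing the data, the order turned, with medians of 68.2 per 100 kb for channel genes and 72.4 for all 6319 genes with 10 or more motoneuron cDNAs. Kcnk9, a shorter gene, had 15 and 15 motoneuron cDNAs, all 30 of them in introns, and no cDNA in the NSC34 or IgG libraries.

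**Figure D5:**
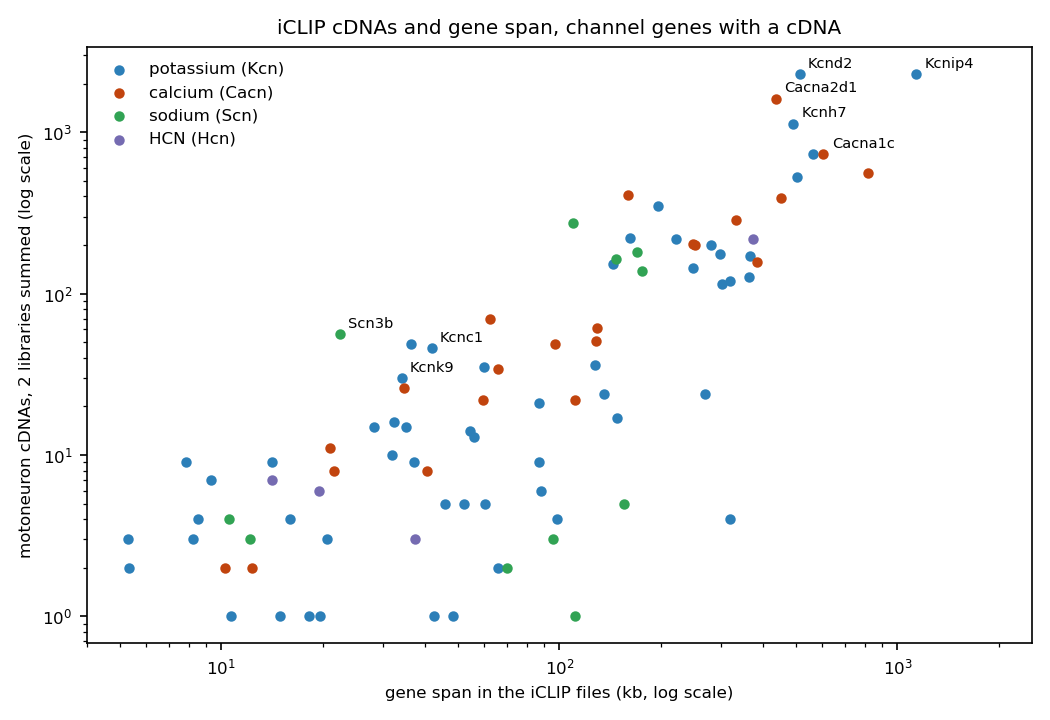
Motoneuron cDNAs (2 libraries summed, log axis) against gene span (kb, log axis) for channel genes with at least 1 motoneuron cDNA, coloured by channel type. Counts climb with span up to Kcnip4 at 1135 kb, and Scn3b and Kcnc1 lie among the highest of the genes under 50 kb.

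Between motoneurons and NSC34 cells, 49 of the 70 channel genes with enough cDNAs to test differed, of 136 in all. In edgeR's quasi-likelihood test with TMM scaling and Benjamini-Hochberg adjustment over all genes, these 49 genes with 10 or more cDNAs were called at 0.05, 44 higher and 5 lower in motoneurons, beside 37.3% of all 9567 genes. The median log2 ratio of motoneurons over NSC34 cells was 3.28 for the channel genes and 0.08 for all genes. It was 2.99 for the channel genes with those lacking cDNAs in 1 cell type placed at their bound. These bounds were scaled by library totals and the other ratios by TMM, so 2.99 mixes 2 scalings and is not directly comparable with 3.28. Scaling mattered, since library totals alone moved the median of all genes to -0.86 and that of the channel genes to 2.32. Under this second scaling 50 channel genes were called, 40 higher and 10 lower, beside 51.2% of all genes (1343 higher, 3554 lower), and 40 genes were higher and 5 lower under both scalings. Transcript levels in NSC34 cells were not measured, so more binding and more transcript in motoneurons cannot be told apart.

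Kcnd2 had a log2 ratio of 3.55 ± 0.26 (SE from the F statistic of edgeR's quasi-likelihood test, n = 2 libraries each, adjusted p = 6.13e-20), and Kcnh7 one of 6.11 ± 0.33 (adjusted p = 7.00e-27). Cacna2d1 had 3.11 ± 0.26 (adjusted p = 3.34e-17) and Kcnq5 had 2.43 ± 0.25 (adjusted p = 4.22e-13) in the same edgeR fit. Kcnip4, with 2294 motoneuron and 6 NSC34 cDNAs, had 9.19 ± 0.42 (adjusted p = 1.63e-30 in the edgeR fit). All 5 were higher in each motoneuron library than in each NSC34 library in CPM (cDNAs scaled to the library total), and were called under both scalings. The N-type pore Cacna1b and the P/Q-type pore Cacna1a had log2 ratios of 3.70 and 3.44, and the sodium channel pores Scn1a, Scn3a and Scn2a1 had 5.26, 4.02 and 2.44, all called under both scalings.

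Of the called genes 9 had no NSC34 cDNA at all and 16 had 1 to 3. For these the fitted ratio depends on the prior count, and bounds were taken against 3 counts over both NSC34 libraries, scaled by library totals. The bounds cover counting error only, not spread between libraries. Kcnma1, the large-conductance calcium-activated potassium channel, with 282 and 246 motoneuron cDNAs, was at least 144-fold higher in motoneurons. The smaller IgG library of NSC34 cells held 1 Kcnma1 cDNA. The L-type pore Cacna1d (223 and 168 motoneuron cDNAs) was at least 107-fold higher, Kcnc2, a fast-spiking channel (260 and 89), at least 95.4-fold, the R-type pore Cacna1e (176 and 110) at least 78.2-fold, and Kcnk9 at least 8.20-fold. With 1 NSC34 cDNA, the G-protein-gated rectifier Kcnj3 had a ratio of 182 (counting interval 32.3 to 7225).

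By family, 13 of 17 voltage-gated potassium alpha subunits, 6 of 8 calcium alpha1 pores, 3 of 3 alpha2delta subunits and 4 of 7 potassium auxiliary subunits were called higher in motoneurons under TMM. Under library totals these counts were 12, 5, 3 and 4. Over all 9567 genes, 2237 were called higher under TMM and 1343 under library totals. Called lower under TMM were 2 of 7 tandem-pore channels, 1 of 6 sodium alpha subunits, 1 of 3 inward rectifiers and 1 of 7 potassium auxiliary subunits. The first 3 of these families had 3, 3 and 2 genes called higher. Under library totals 3 of 6 sodium alpha subunits were called higher and 3 lower. The pacemaker subunits Hcn2 and Hcn3 were not called.

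Lower in motoneurons under both scalings were 5 genes. Scn9a, a sodium channel of peripheral sensory and sympathetic neurons, had 0 and 5 motoneuron cDNAs and 102 and 20 NSC34 cDNAs (log2 ratio -3.86 ± 0.55, adjusted p = 1.16e-08 in the edgeR fit). The inward rectifier Kcnj12 had 0 and 1 motoneuron cDNAs and 28 and 3 NSC34 cDNAs, and the KChIP gene Kcnip3 had 1 and 1 motoneuron cDNAs and 19 and 9 NSC34 cDNAs. Kcnk3 had 2 and 7 motoneuron cDNAs and 39 and 8 NSC34 cDNAs. Kcnk5 had no motoneuron cDNA and 9 and 1 NSC34 cDNAs, at least 4.06-fold lower in motoneurons. DESeq2 called Scn9a alone among these and gave Kcnk5 no adjusted p. In edgeR, Kcnk3 was no longer called without NSC34 replicate 1 or without motoneuron replicate 1, and Kcnk5 without either motoneuron replicate.

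Cacna1c and Scn8a, a sodium channel of the nodes and initial segment, depended on the scaling. Cacna1c had a log2 ratio of 0.64 (adjusted p = 0.0233) under TMM and -0.31 (adjusted p = 0.269) under library totals, both from edgeR. Scn8a, with 85 and 54 motoneuron cDNAs and 185 and 30 NSC34 cDNAs, had 0.10 (adjusted p = 0.812) under TMM and -0.86 (adjusted p = 0.00372) under library totals, both from edgeR. Leaving out either NSC34 replicate, or motoneuron replicate 1, ended the call of Cacna1c in edgeR. Cacng8 and Scn3b were called higher in motoneurons under TMM only, and Cacng3 and Kcnh2 lower under library totals only.

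Against the IgG library, hnRNP R in NSC34 cells called 0 of 70 channel genes in edgeR's test, beside 0.533% of all genes. The cDNA minimum was taken over all unfractionated libraries, so many of these 70 genes entered through their motoneuron cDNAs. Of the 70, 9 had no NSC34 cDNA and could not be called above IgG. A further 16, all called between motoneurons and NSC34 cells, had 1 to 3. Cacna1d, Cacna1e, Kcnk9 and Kcnk10 were among those without a cDNA in the NSC34 and IgG libraries, so the test says nothing about them. At an unadjusted p under 0.05 there were 2 channel genes higher and 8 lower, and DESeq2 called 0. The lone IgG library was assumed to vary like the others, and its 36280 cDNAs limit what could be seen. Its file header names hnRNP R as the protein and carries the library identifier of NSC34 replicate 2, so that its identity as IgG rests on its title alone. The counts of these 2 libraries differed beyond sampling noise over all genes (chi-square per degree of freedom 5.71). On voltage-gated potassium alpha subunits the NSC34 libraries held 1206 and 1223 CPM and the IgG library 1130 CPM, and on calcium alpha1 pores they held 1609 and 1453 CPM against 2591 CPM. Thus no channel gene was called above IgG in NSC34 cells, and the summed channel share there was lower than with IgG.

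Between nuclear and cytoplasmic fractions 0 of 51 channel genes were called in edgeR's test with a block for each pair, beside 0% of all 5177 genes. At an unadjusted p under 0.05 there were 0 channel genes and 27 genes in all, and DESeq2 called 0 channel genes. In motoneurons the nuclear library held 1828 channel cDNAs (2.00% of all, 98.2% in introns) and the cytoplasmic library 4462 (2.29%, 97.2% in introns). The cytoplasmic NSC34 libraries held 7 and 11 channel cDNAs of 3569 and 2796 in all, so differences in NSC34 cells were not detectable at this depth. The nuclear motoneuron library had 91302 cDNAs in all and the cytoplasmic one 194816. Kcnip4 had 203 nuclear and 816 cytoplasmic motoneuron cDNAs (2223 and 4189 CPM), Kcnd2 had 174 and 611 (1906 and 3136 CPM), and Cacna1a had 58 and 56 (635 and 287 CPM).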

How the data were processed

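RNA-seq covered 22 libraries in 6 groups and iCLIP covered 11 libraries. The authors deposited 4 tables of group FPKM values, 1 per comparison, with their log2 ratio, test score, p-value and q-value per record. Cufflinks 2.2.1 and FastQC 0.10.1 are named in the submitters' processing notes, with the build GRCm38. The controls of both tables of a compartment were the same libraries up to a constant (ratio of the 7SK to the hnRNP R values 1.03 in axons and 0.920 somatodendritic). The authors' iCLIP files hold whole cDNA counts per gene and gene part, on mm9 with Ensembl 59 per the file headers, and a blank was read as 0. Some sample descriptions list a somatodendritic table under samples of another group, so the groups of each table were taken from its own name and group cells, and the somatodendritic values, Kcnk9 included, rest on these. Another 1243 per-sample columns of these files were not used.

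Ratios of FPKM used 0.1 FPKM added and a minimum of 1 FPKM in either group. Sums of cDNAs per gene were tested with edgeR 4.0.16 (R 4.3.3; quasi-likelihood, TMM, at least 10 cDNAs, Benjamini-Hochberg adjusted p under 0.05) in 2 fits, 1 over the 5 unfractionated libraries and 1 over the 6 fractionated ones with a block per pair. DESeq2 1.42.0 was an alternative. The edgeR fits, but not DESeq2, were also run on simulated data. Motoneuron and NSC34 replicates differed beyond sampling noise over all genes (chi-square per degree of freedom 3.80 and 2.73) and were kept separate. Over channel genes the value was 9.34 between the motoneuron replicates (47 genes) and 0.82 between the NSC34 replicates (24 genes). Other steps used Python 3.11.15, numpy 2.4.6, pandas 2.3.3, scipy 1.17.1 and matplotlib 3.10.9.

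The members and lists were chosen with earlier results of these data known. Named were the channel records the authors tested, the 8 highest and 8 lowest ratios at 5 FPKM or more per comparison, the 10 highest GFP levels per compartment, the 15 genes with the most iCLIP cDNAs, the called genes or the 10 largest changes each way, and a set of well-known channels; some of these genes are counted but not reported here. The 2-fold count, the bins of level, the sum of introns over both motoneuron libraries, the 100 kb limit, the antisense counts and the scaling by library totals were chosen after seeing the data. Gene spans are those of the iCLIP files, and coordinates are those of the RNA tables.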

Additional observations from a re-analysis of the deposited data

How the results depend on the processing

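Median log2 ratios of knockdown over GFP were near 0 and moved with the FPKM minimum: 0.35 at 5 FPKM and 0 without a minimum for hnRNP R axons, 0.21 and 0.032 for axons labelled 7SK knockdown, 0.012 and 0 for hnRNP R cell bodies, and 0 without a minimum for 7SK cell bodies. At q under 0.10, 1 channel record (Kcnk9) was called in hnRNP R cell bodies in the authors' deposited table. The axon over cell body median was -1.33 in the 7SK tables and -1.13 with 1 FPKM added. The intron share was 96.7% without the top gene and 93.7% with genes weighted equally. Of motoneuron over NSC34 calls, 49 in all, edgeR called 47 to 50 under other scalings, no filter (47 of 103 tested) and no IgG, and DESeq2 called 36. Leaving out a library gave 37 to 45, the fewest without NSC34 replicate 1, where 11 genes were no longer called, among them Cacna1c, Kcnk3 and Scn3b. The replicate block gave 47 calls without Cacng8 and Kcnk5, and same-numbered replicates did not deviate together (r = -0.017, 2 pairs). Scaling by library totals was added after seeing the data; it turned Cacna1c to -0.31 and gave 1 NSC34 over IgG call, Cacna1h, lower. Scn8a turned to -0.13 without the filter, -0.86 by library totals, and between -0.37 and 0.20 when 1 library was left out. Of 50 genes followed, 35 kept direction and call under every alternative. Nuclear over cytoplasmic and leave-one-out NSC34 over IgG counts stayed at 0, which says little at these depths. The cause of these shifts was not tested.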

Other observations

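The iCLIP files also count cDNAs antisense to each gene, and the channel genes were looked at for these after seeing the data. Kcnq1, a potassium channel best known from heart and inner ear, had 161 and 108 antisense cDNAs in the motoneuron libraries, 645 and 94 in the NSC34 libraries and 42 in the IgG library. Its sense cDNAs were 4 and 0 in motoneurons, 1 and 0 in NSC34 cells and 0 with IgG. RefSeq places the long noncoding RNA Kcnq1ot1 within Kcnq1, but the antisense cDNAs were not assigned to a transcript. Kcnj6, a G-protein-gated rectifier, had 6 and 1 antisense cDNAs in motoneurons, 107 and 21 in NSC34 cells and 25 with IgG, and 82 and 63 sense cDNAs in motoneurons, 3 and 2 in NSC34 cells and 0 with IgG. Per 100 sense cDNAs, channel genes had 3.51 and 2.35 antisense cDNAs in motoneurons, 38.2 and 34.0 in NSC34 cells and 33.5 with IgG. Over all genes these values were 3.26 and 2.16 in motoneurons, 4.50 and 5.02 in NSC34 cells and 5.83 with IgG. The motoneuron values of channel genes thus lay near those of all genes. Without Kcnq1 the values of channel genes were 1.54 and 0.858 in motoneurons, 10.7 and 14.3 in NSC34 cells and 16.3 with IgG.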
